A study of Mus musculus with 13 samples.

Results

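Interferons are secreted proteins that cells release when they sense foreign or misplaced nucleic acid. Type I interferons signal through the receptor pair Ifnar1 and Ifnar2, and interferon gamma through Ifngr1 and Ifngr2. Both receptors act through Janus kinases and STAT proteins. Type I signalling assembles a complex that holds STAT2 and IRF9 and binds a promoter element called ISRE, and interferon gamma acts through an element called GAS. The genes switched on in this way, the interferon-stimulated genes, encode sensors of viral RNA, antiviral enzymes, the ubiquitin-like protein ISG15, chemokines and the machinery that loads peptides on MHC class I. Marrow stromal cells and blood cells can both express them.

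The members described here are 34 interferon-stimulated genes of 23211 gene IDs in the deposited matrix, taken by symbol from a fixed list and not by their values. All 34 matched one Ensembl ID each. RNA came from lineage-negative cells of mice that carried the leptin receptor (LEPR), a surface marker of marrow stromal cells, sorted from tissue around a tibia implant. The bone group held 6 libraries from bone around implants named Pressfit, and the fibrous group held 7 from fibrotic tissue around implants named PMMA. The labels give no strain, sex, age, time after implantation or further treatment, and do not say whether animals were pooled or which libraries came from one animal, so a p-value here weighs a difference against library-to-library spread alone, which may be technical. Library names form an L002 series (4 bone, 5 fibrous) and an XY9274 series (2 bone, 2 fibrous). Within L002, 3 names hold Lin (bone 3, bone 4 and fibrous 5), 5 hold plus (bone 1, bone 2 and fibrous 2, 3 and 4), and the name of fibrous 1 holds neither. LepR stands directly before plus in the names of bone 2 and fibrous 2, 3 and 4, and is in no name that holds Lin. Every XY9274 name holds Lepr followed by Pos, that of bone 5 included. The sample titles call every library LepR+, those named Lin included. Beyond this the labels do not say what Lin or plus stands for.

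Totals ran from 16162321 to 44302166 counts, with 14644 to 20146 genes detected. A level of 3 counts, taken as the detection floor for counting error only, was worth 0.0581 to 0.282 CPM (counts scaled to a common library total with TMM normalisation factors). Lepr, the gene of the sort marker, lay between 46.7 and 808 CPM in 8 libraries and under 5 CPM in bone 3, 4 and 5 and fibrous 1 and 5, which include all 3 libraries with Lin in the name. Levels of Ptprc, the pan-leukocyte marker CD45, reached 464 CPM in bone 5. Haemoglobin transcripts took between 0.128% (bone 5) and 35.3% (bone 4) of the counts. In these sorted pools, fewer cells of a type and less RNA per cell cannot be told apart.

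For the members whose levels the results turn on, promoter stretches from RefSeq (GRCm38.p6) are shown as 250 bases before the start site, 5′ to 3′ on the gene's strand. Rsad2, Isg15 and Irf7 are shown because they had the same 5 highest libraries, Cxcl10 because its highest level was in the library with the lowest Rsad2, and Ifit1 because it held 2 separate matches. Capitals mark matches to the ISRE core, which is 2 copies of GAAA with 2 bases of any kind (N) between them, or of TTTC where it is read on the other strand. The stretches lie at chr12:26456453-26456702 (minus strand) for Rsad2, chr4:156200819-156201068 (minus) for Isg15, chr7:141266425-141266674 (minus) for Irf7, chr5:92348890-92349139 (minus) for Cxcl10 and chr19:34640639-34640888 (plus) for Ifit1.
Rsad2: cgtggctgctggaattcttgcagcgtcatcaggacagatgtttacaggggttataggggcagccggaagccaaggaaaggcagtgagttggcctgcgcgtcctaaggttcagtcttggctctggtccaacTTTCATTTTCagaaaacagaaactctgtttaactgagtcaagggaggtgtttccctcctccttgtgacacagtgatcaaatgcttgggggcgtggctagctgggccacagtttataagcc
Isg15: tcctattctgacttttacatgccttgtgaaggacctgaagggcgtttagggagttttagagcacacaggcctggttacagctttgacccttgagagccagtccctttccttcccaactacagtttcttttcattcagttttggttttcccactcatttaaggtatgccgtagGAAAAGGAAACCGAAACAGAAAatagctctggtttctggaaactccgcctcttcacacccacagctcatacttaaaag
Irf7: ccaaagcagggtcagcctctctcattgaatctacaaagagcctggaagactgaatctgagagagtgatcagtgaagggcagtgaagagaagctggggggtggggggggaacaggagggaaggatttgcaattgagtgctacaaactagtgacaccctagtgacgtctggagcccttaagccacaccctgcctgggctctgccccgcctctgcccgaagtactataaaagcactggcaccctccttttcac
Cxcl10: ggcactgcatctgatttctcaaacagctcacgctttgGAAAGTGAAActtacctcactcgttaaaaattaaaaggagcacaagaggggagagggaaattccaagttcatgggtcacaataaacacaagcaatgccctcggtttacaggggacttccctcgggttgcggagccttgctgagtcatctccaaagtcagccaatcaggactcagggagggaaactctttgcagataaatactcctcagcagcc
Ifit1: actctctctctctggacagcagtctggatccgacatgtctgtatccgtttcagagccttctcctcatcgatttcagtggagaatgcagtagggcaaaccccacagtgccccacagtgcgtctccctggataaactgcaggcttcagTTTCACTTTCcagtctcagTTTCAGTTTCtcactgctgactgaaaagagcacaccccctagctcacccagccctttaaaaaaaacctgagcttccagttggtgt

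Isg15 held 3 overlapping matches, beginning 78, 72 and 66 bases before the start site. Rsad2 held 1, beginning 120 bases before it, Cxcl10 held 1 at 213 bases, and Ifit1 held 2 at 104 and 85 bases. The Irf7 stretch held no such letters. Promoter windows of 300 bases (250 before to 50 after the start site) were found for 26 of the 34 members, and 13 of these 26 (50%) held an ISRE core on either strand, against 3.99% of 27025 genes with a window. They were Stat2, Ifih1, Eif2ak2, Oas1a, Oas3, Ifit1, Ifit3, Rsad2, Bst2, Isg15, Cxcl10, Gbp2 and Gbp3. In 6 of the 13 there were at least 2 matches, and in 4 of those the matches overlapped each other. The GAS core TTCNNNGAA, which reads the same on both strands, was found in 6 of the 26 (23.1%), namely Irf1, Eif2ak2, Oas1a, Ifit2, Bst2 and Psmb8, against 9.55% of genes. In 1 member, Bst2, an ISRE match overlapped a GAS match. These are matches of letters and not measured binding. Dhx58, Oas2, Mx1, Mx2, Rtp4, Ifi27l2a, Usp18 and Parp14 had no window.

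Of the 34 members, 22 were counted in every library, 12 had 0 counts in at least 1, 23 had a mean of at least 10 CPM and 3 (Oas2, Mx1 and Mx2) a mean under 1 CPM. Per kilobase of exon, the mean level over all 13 libraries was highest for Rsad2 (150 CPM per kb) and Isg15 (127 CPM per kb). Ifi27l2a followed at 38.03, Bst2 and Irf7 at 28.6 each, Irf9 at 14.8, Psmb9 at 12.4, Psmb8 at 11.8, Tap1 at 10.8 and Usp18 at 10.5 CPM per kb. Each library held between 23 and 31 members at 1 CPM or more. Summed over the members, the level ran from 578 to 2978 CPM, and Rsad2 alone made up between 2.41% (bone 5) and 64.8% (bone 4) of that sum. Without Rsad2 the sum ran from 434 to 1307 CPM.

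**Figure D1:**
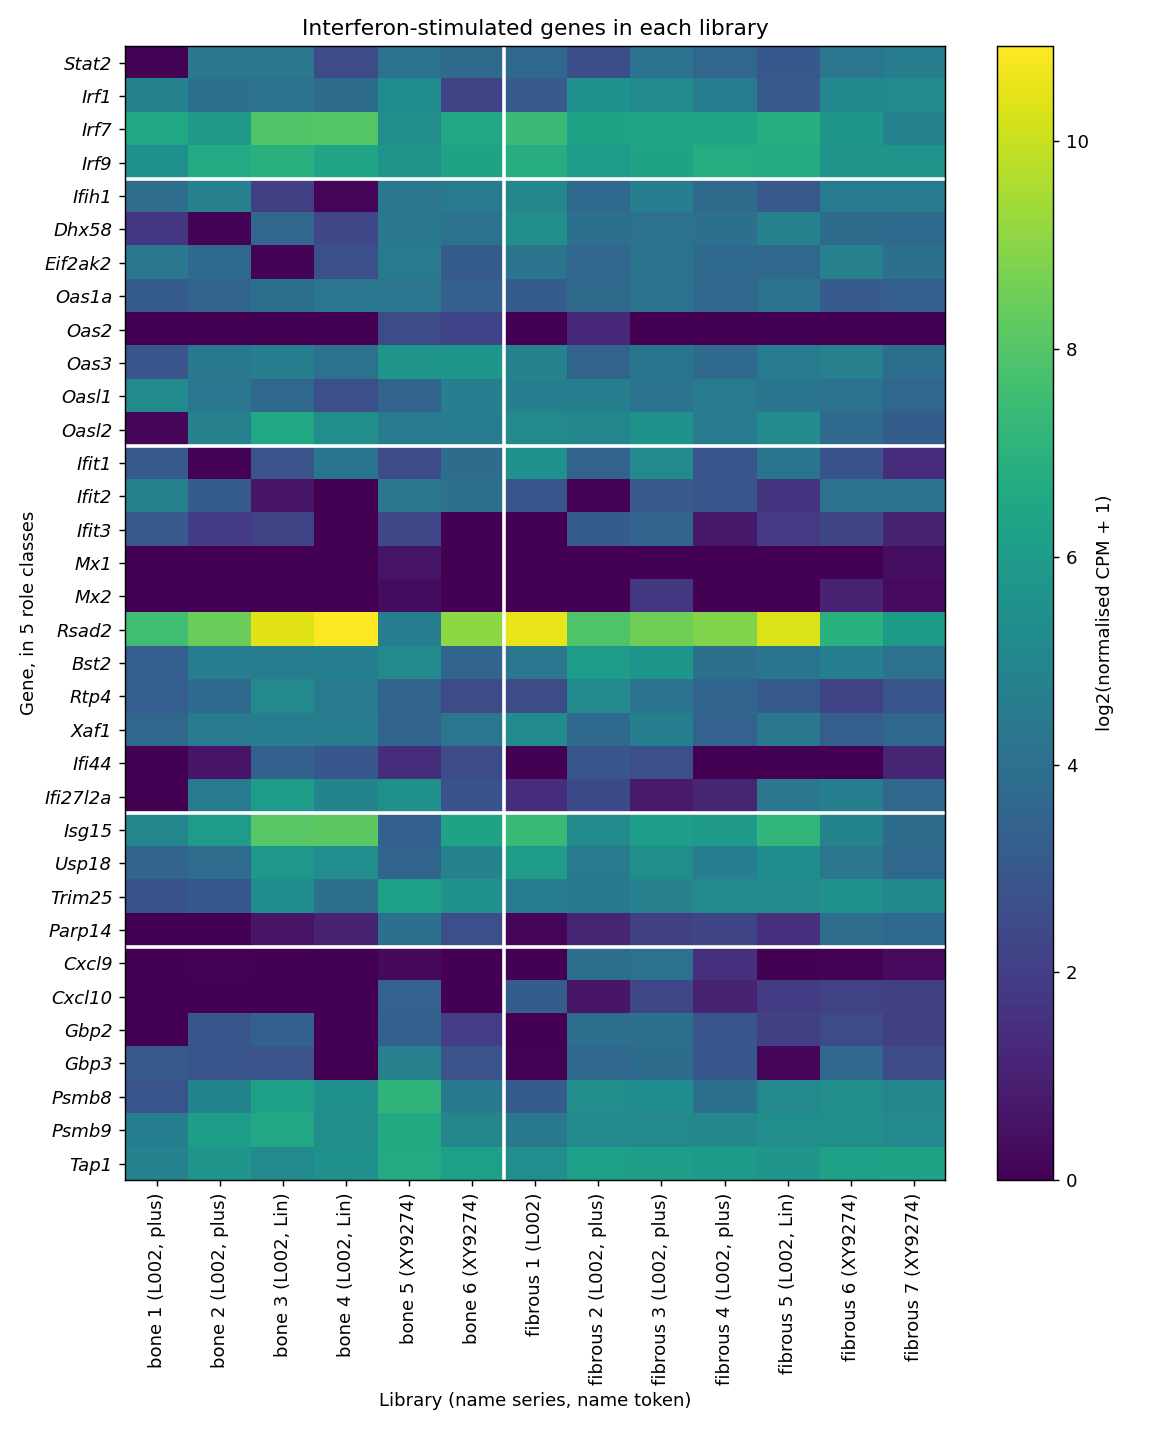
Level of each of the 34 genes (rows, in 5 role classes divided by white lines) in each of the 13 libraries (columns, bone left of the white line, fibrous right), as log2 of normalised CPM plus 1. Rsad2 is the brightest row in most libraries, Isg15 and Irf7 are brightest in bone 3, bone 4 and fibrous 1, and Oas2, Mx1 and Mx2 are dark nearly throughout.

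Among the transcription factors, Irf7, the factor that amplifies type I interferon production, had the highest mean level, and its top 5 libraries were those of Rsad2. Irf7 (ENSMUSG00000025498, chromosome 7, 141262706 to 141266481, minus strand, mm10) lay at 91.5, 57.1, 248.9, 259, 41.6 and 96.1 CPM in bone 1 to 6. In fibrous 1 to 7 it lay at 172, 77.8, 87.2, 81.5, 111, 54.5 and 26.6 CPM. Bone 3, bone 4 and fibrous 1 stood highest and the groups overlapped. Irf9, the DNA-binding subunit of the complex that holds STAT2, was far steadier, with a highest level 2.74 times the lowest. Its levels were 43.8, 99.9, 120.0, 81.2, 49.3 and 77.4 CPM in bone 1 to 6 and 109, 64.9, 77.4, 107, 105, 49.8 and 49.2 CPM in fibrous 1 to 7. The Irf9 gene overlaps Rnf31 on the same strand, and Irf7 overlaps Phrf1 on the other strand. Irf1, Dhx58, Oasl1, Rtp4, Usp18 and Cxcl10 also overlap a gene on the other strand. How reads from these overlaps were counted is not given in the sources used here. Irf1, a factor induced by interferon gamma, had its highest level in fibrous 2 (44.6 CPM) and its lowest in bone 6 (3.75 CPM). Stat2 ranged from 0.0394 CPM (bone 1) to 22.98 CPM (fibrous 7).

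The sensors and the 2′-5′ oligoadenylate synthetase (OAS) family, which makes the second messenger that activates RNase L, had mean levels from 0.749 CPM (Oas2) to 30.6 CPM (Oasl2). Oasl2, an OAS-like protein, lay at 0.158, 26.1, 91.6, 41.1, 22.0 and 23.1 CPM in bone 1 to 6 and 34.8, 30.8, 47.9, 22.5, 37.4, 12.4 and 8.28 CPM in fibrous 1 to 7. Bone 3 stood highest and bone 1 was close to the floor. Oas3, the family member with the longest protein, lay at 6.30, 20.3, 24.6, 15.9, 50.2 and 52.5 CPM in bone 1 to 6, so that both XY9274 bone libraries were the highest. In fibrous 1 to 7 Oas3 lay at 28.4, 10.2, 18.1, 12.1, 22.1, 25.8 and 14.5 CPM, within the bone range. Dhx58, which encodes the RNA sensor LGP2, lay at 2.29, 0.0817, 11.1, 4.04, 19.5 and 15.7 CPM in bone 1 to 6. Its fibrous levels were 40.7, 15.3, 15.7, 15.1, 26.4, 13.3 and 12.3 CPM, all above the bone median of 7.57 CPM but overlapping the XY9274 bone libraries. Ifih1 (the RNA sensor MDA5) ran from 0.0939 to 32.3 CPM, and Eif2ak2 (the kinase PKR, which halts translation) from 0.0621 to 25.6 CPM. Oas1a spanned 7.68 to 18.8 CPM and Oasl1 5.26 to 35.5 CPM, the first of these being the member with the smallest spread, a highest level 2.45 times the lowest. Oas2 had 0 counts in 10 libraries and reached 4.80 CPM in bone 5, 3.54 CPM in bone 6 and 1.40 CPM in fibrous 2.

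Of the antiviral effectors, Rsad2 (viperin, a radical SAM enzyme that makes a chain-terminating nucleotide) was the most abundant and the most variable of the members counted well above the floor everywhere. Rsad2 (ENSMUSG00000020641, chromosome 12, 26442746 to 26456452, minus strand, mm10) lay at 188, 353, 1369, 1930.0, 22.9 and 533 CPM in bone 1 to 6. In fibrous 1 to 7 it lay at 1503, 243, 369, 463, 1289.5, 123 and 60.9 CPM. Bone 3, bone 4, fibrous 1 and fibrous 5 lay at 1289.5 CPM or above and all other libraries at 533 CPM or below, and the highest level was 84.1 times the lowest. Bst2 (tetherin, which holds budding virions at the cell surface) followed a different order. It lay at 8.63, 23.3, 23.6, 25.3, 36.3 and 10.8 CPM in bone 1 to 6 and at 18.7, 62.4, 51.8, 15.5, 18.0, 25.2 and 16.5 CPM in fibrous 1 to 7, highest in fibrous 2 and 3. These were also the libraries with the highest Lepr, at 808 and 407 CPM.

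The IFIT proteins, which bind viral RNA caps and ends, were low and uneven. Ifit1 ran from 0.0409 CPM (bone 2) to 44.3 CPM (fibrous 1), with 33.9 CPM in fibrous 3 and at most 18.2 CPM elsewhere. Ifit2 ran from 0 (bone 4) to 26.9 CPM (bone 1), and Ifit3 from 0 in 3 libraries to 10.4 CPM (fibrous 3). Ifit3 has a near-identical copy, Ifit3b, and how reads that fit both were counted is not given in the sources used here. The same holds for Oas1a and its paralog Oas1g. Mx1 and Mx2, the dynamin-like GTPases often used as readouts of type I interferon, were close to absent: Mx1 had 0 counts in 11 libraries and at most 23 counts, and Mx2 had 0 counts in 9 and at most 65. Among the rest, Rtp4, a chaperone, spanned 3.76 to 36.2 CPM and Xaf1, a pro-apoptotic protein, 8.92 to 37.3 CPM. Ifi44 spanned 0 to 9.43 CPM and Ifi27l2a 0 to 63.7 CPM.

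The ISG15 system held the member closest to Rsad2 in its order. Isg15 (ENSMUSG00000035692, chromosome 4, 156199424 to 156200818, minus strand, mm10), the ubiquitin-like modifier, lay at 32.3, 63.8, 271, 288, 9.38 and 78.0 CPM in bone 1 to 6. In fibrous 1 to 7 it lay at 160, 37.5, 65.9, 57.6, 143, 29.8 and 13.4 CPM. The same 4 libraries that held the highest Rsad2 held the highest Isg15. Usp18, the protease that removes ISG15 and dampens signalling at IFNAR2, lay at 10.8, 13.7, 55.5, 40.4, 10.1 and 28.5 CPM in bone 1 to 6 and 62.6, 22.3, 42.9, 24.2, 39.0, 18.9 and 11.8 CPM in fibrous 1 to 7. Its top 5 libraries shared 4 with those of Rsad2. Trim25, the ubiquitin ligase that acts on the RNA sensor RIG-I, shared 3 of its top 5 libraries with Rsad2 but had a different order. It lay at 5.67, 6.99, 38.5, 15.5, 71.5 and 45.1 CPM in bone 1 to 6 and at 22.7, 20.6, 25.8, 34.7, 36.9, 45.6 and 33.5 CPM in fibrous 1 to 7, highest in bone 5. Parp14, an ADP-ribosyltransferase, split by library name and not by tissue. It lay at 0, 0, 0.496, 1.13, 14.7 and 5.29 CPM in bone 1 to 6 and at 0.157, 1.18, 3.16, 3.85, 1.77, 13.8 and 12.1 CPM in fibrous 1 to 7, so the 4 XY9274 libraries (5.29 to 14.7 CPM) lay above all 9 L002 libraries (0 to 3.85 CPM).

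The chemokines and the antigen-presentation genes gave 2 further orders. Tap1, a subunit of the peptide transporter, lay at 27.9, 51.2, 36.1, 43.6, 100.05 and 70.4 CPM in bone 1 to 6 and at 39.9, 71.4, 66.0, 60.7, 51.2, 75.7 and 76.3 CPM in fibrous 1 to 7, a spread of 3.58 times. Psmb9, a catalytic subunit of the immunoproteasome, lay at 24.9, 66.6, 90.5, 41.4, 96.8 and 30.3 CPM in bone 1 to 6 and at 20.3, 35.3, 34.2, 31.8, 40.9, 41.1 and 34.03 CPM in fibrous 1 to 7. Psmb8, its partner subunit, ran from 6.11 CPM (bone 1) to 137 CPM (bone 5). All of these were highest in bone 5, as were Gbp3 (26.3 CPM), Trim25, Parp14 and Cxcl10. Bone 5 was highest for 9 members in all, the most of any library, and had the lowest Rsad2 and Isg15. Its pan-leukocyte markers summed to 5388 CPM, its neutrophil markers to 97114 CPM and its B cell markers to 18992 CPM, each the highest of the 13 libraries, and the part of those cells in the level of these members was not tested.

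Cxcl10, a chemokine that draws activated T cells, had 0 counts in 5 of 6 bone libraries and 9.74 CPM in bone 5. In fibrous 1 to 7 it lay at 8.37, 0.592, 4.05, 1.09, 2.84, 3.49 and 3.24 CPM, so it was counted in every fibrous library. Cxcl9, a related chemokine induced mainly by interferon gamma, was above 1 CPM in 3 libraries, fibrous 2 (14.5 CPM), fibrous 3 (16.1 CPM) and fibrous 4 (1.78 CPM), with at most 0.233 CPM elsewhere. Those 3 held the highest Lepr levels of the series. Gbp2, an interferon-induced GTPase, was highest in fibrous 2 and 3 as well, at 14.3 and 14.6 CPM, against at most 9.58 CPM in the other libraries.

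**Figure D2:**
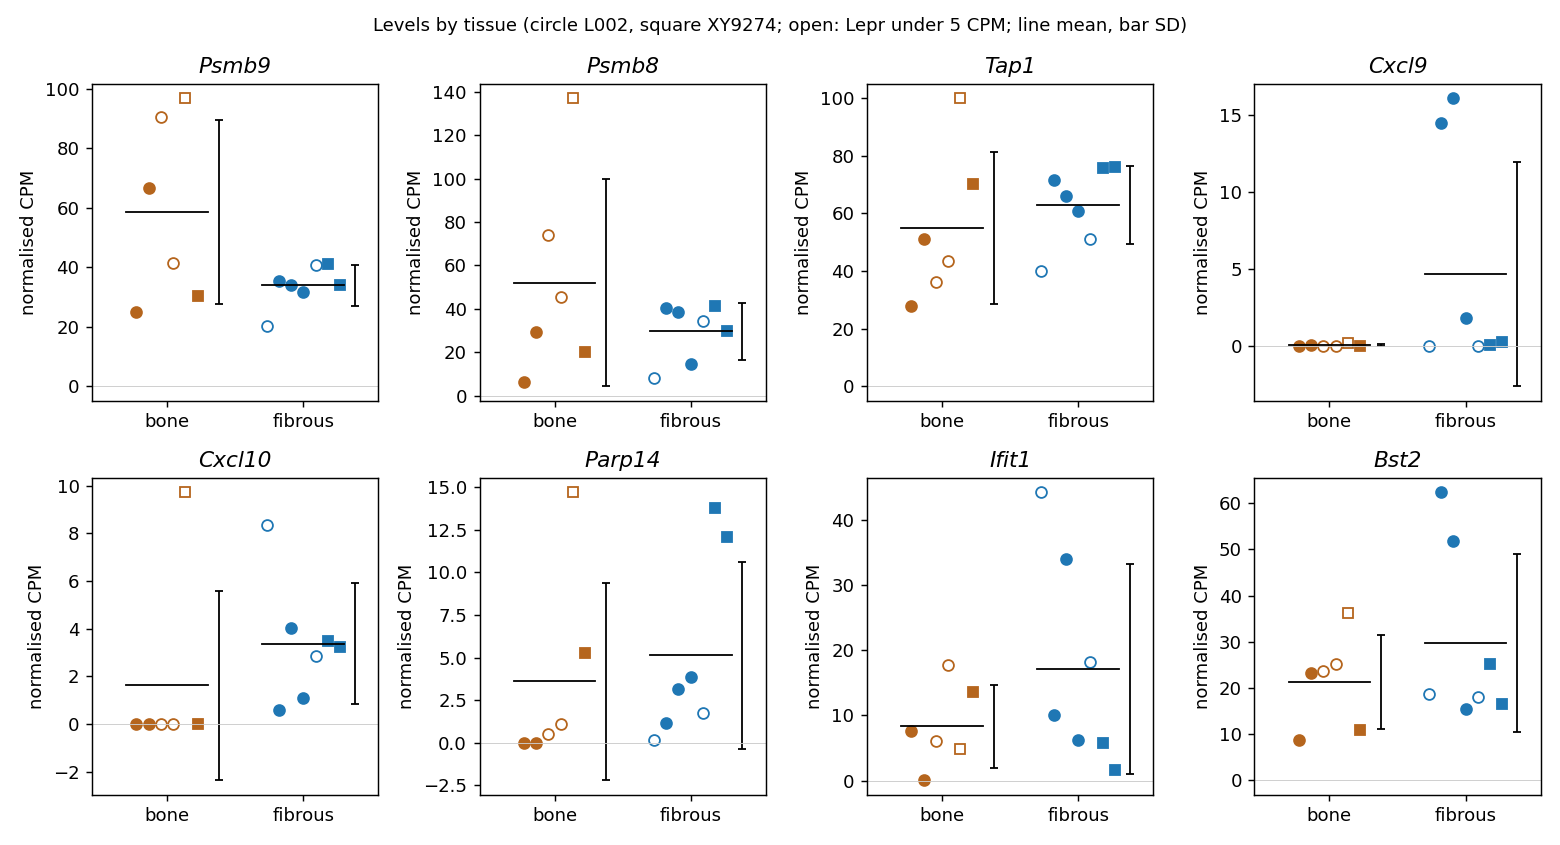
Normalised CPM (y axis, linear) of 8 genes in the 6 bone and 7 fibrous libraries, 1 point each, with the group mean (line) and SD (bar); circles are L002, squares XY9274, and open points have Lepr under 5 CPM. Groups overlap for all 8 genes, Cxcl10 is at 0 in 5 bone libraries and in none of the fibrous ones, and bone 5 (open square) is the highest point for Psmb9, Psmb8, Tap1, Cxcl10 and Parp14.

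The study was designed to compare fibrous tissue with bone, and edgeR called no interferon-stimulated gene in that comparison. With edgeR's quasi-likelihood test, the name series as a term and Benjamini-Hochberg adjustment over all genes, 0 of the 30 members that passed the filter on low counts were called, and 0 of 13294 genes in all (percent called 0). Oas2, Mx1, Mx2 and Cxcl9 did not pass the filter. At an unadjusted p under 0.05 there were 2 members and 636 genes (4.78%). DESeq2 called 1 member and 1.3% of genes, and limma-voom called 0 members and 0 genes (8.85% at an unadjusted p under 0.05). Of the 30, 15 had a positive and 15 a negative log2 fold change, with a median of 0.0097 against 0.026 over all genes. In the same fit all 10 LepR stromal markers had a positive log2 fold change (median 1.99) and all 7 pan-leukocyte and 10 neutrophil markers a negative one (medians -1.65 and -1.94), with 0 called by edgeR, and their part in the members' values was not tested. No member separated the groups, as 0.0602% of genes did with every fibrous library above every bone library and 0.00752% did the other way round.

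The 4 members with the smallest p were Psmb9, Cxcl10, Irf7 and Dhx58. Psmb9 (chromosome 17, 34181987 to 34187764, minus strand) averaged 33.9 ± 6.97 CPM (SD, n = 7) in fibrous and 58.4 ± 30.9 CPM (SD, n = 6) in bone libraries. Its log2 fold change was -0.79 (SE 0.33), with an edgeR adjusted p of 0.873 and an unadjusted p of 0.0323. Within L002 alone it was -0.86 and within XY9274 alone -0.82, and without the 5 libraries with Lepr under 5 CPM it was -0.17. Psmb9 and Tap1 are read in opposite directions and overlap, with start sites 211 bases apart, and without known strand reads from the overlap cannot be told apart. Cxcl10 (chromosome 5, 92346638 to 92348889, minus strand) averaged 3.38 ± 2.54 CPM (SD, n = 7) against 1.62 ± 3.97 CPM (SD, n = 6). Its edgeR fold change of 6.03 (SE 2.70, log2, adjusted p 0.873) is imprecise, since 5 bone libraries were at 0. With 1 library left out it ran from 5.03 to 9.57, the latter without bone 5. DESeq2 gave an adjusted p of 0.00447, the only member call by that tool. The direction came from L002, where all 4 bone libraries were at 0. Within XY9274 alone the log2 fold change was -0.59 (SE 2.43), with 9.74 and 0 CPM in bone against 3.49 and 3.24 CPM in fibrous libraries.

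Irf7 averaged 87.2 ± 45.9 CPM (SD, n = 7) in fibrous and 132 ± 96.4 CPM (SD, n = 6) in bone libraries, with a log2 fold change of -0.71 (SE 0.39, edgeR adjusted p 0.873). Without the 3 libraries named Lin, 2 of which are bone, it was -0.08. Within L002 alone it was -0.74 and within XY9274 alone -0.83. Dhx58 averaged 19.8 ± 10.3 CPM (SD, n = 7) against 8.78 ± 7.85 CPM (SD, n = 6), with a log2 fold change of 1.51 (SE 0.88, edgeR adjusted p 0.873) that was 2.25 within L002 and -0.52 within XY9274. Rsad2 differed by -0.75 (SE 0.76) and Isg15 by -0.92 (SE 0.61) on the log2 scale, both less than the spread between libraries. Within L002 and XY9274 alone, Rsad2 differed by -0.42 and -1.67 and Isg15 by -0.93 and -1.09. Without the libraries with Lepr under 5 CPM, Rsad2 differed by -0.79 and Isg15 by -0.63. Without the libraries named Lin these values were -0.06 and -0.06, and with the erythroid marker score as a further term they were 0.11 (SE 0.20) and -0.30 (SE 0.23), an alternative added after seeing the data.

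**Figure D3:**
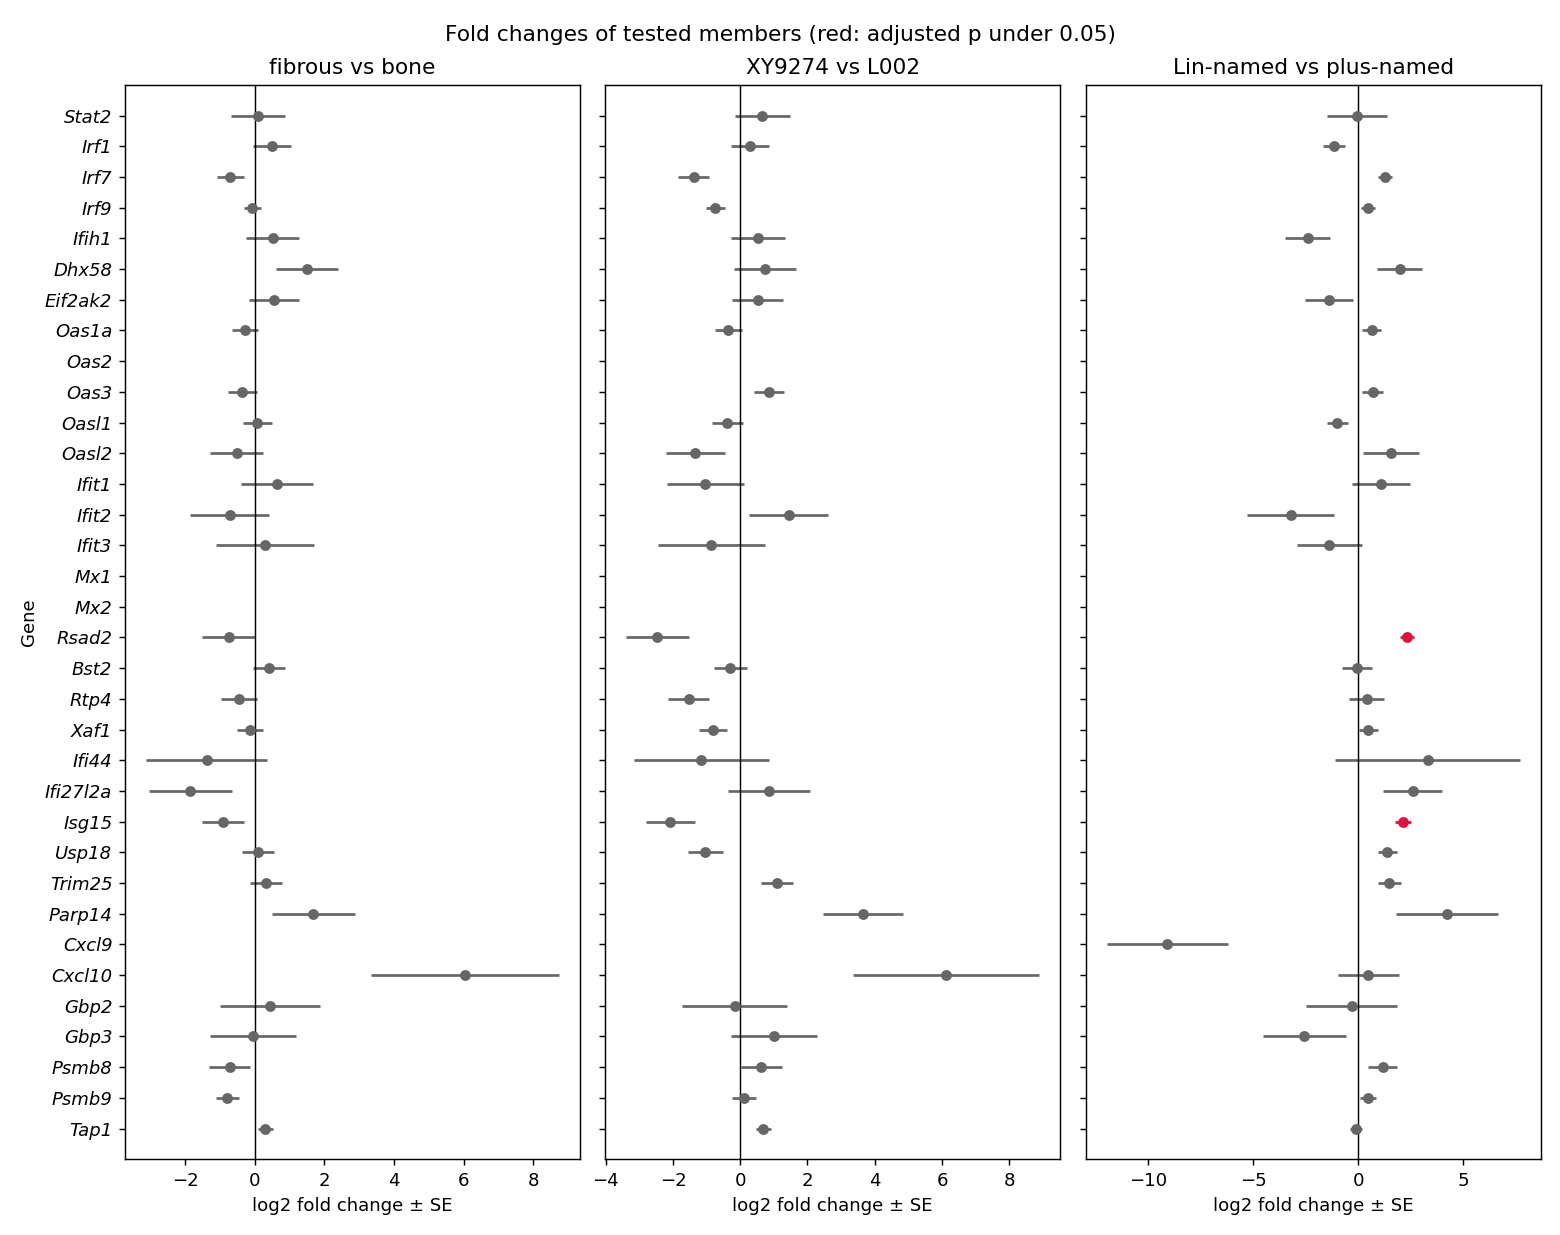
Log2 fold change with its standard error (x axis) for each tested member (y axis) in 3 comparisons, each the first named group minus the second, from edgeR; red points have an adjusted p under 0.05. Fibrous against bone and XY9274 against L002 have no red point, and Lin-named against plus-named has 2, Rsad2 and Isg15.

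Whether the tissue difference itself differed between the 2 name series was tested as an interaction. It was called for 0 of 30 members and 0 of 13294 genes by edgeR (percent called 0, 2.2% at an unadjusted p under 0.05) and for 0 members and 0.192% of genes by DESeq2. Cxcl10 had the smallest p and was the 1 member under 0.05 before adjustment (-10.16 on the log2 scale, SE 3.47, edgeR adjusted p 1.0). Limma-voom called 0 members and 0 genes (4.96% of genes at an unadjusted p under 0.05). Oas3 (-1.43, SE 0.81), Dhx58 (-2.78, SE 1.59) and Tap1 (-0.67, SE 0.44) came next and none was called. Without bone 5 the Cxcl10 interaction was -0.06, a fit in which every bone library was at 0. In the full fit every L002 bone library was at 0, so the size of its Cxcl10 value is poorly determined.

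Between the library series, edgeR called 0 of the 30 members tested. Of these, 15 had a positive and 15 a negative log2 fold change in XY9274, against 2.4% of 14673 genes called (2.16% higher and 0.239% lower). At an unadjusted p under 0.05 there were 9 members (30%) and 21.9% of genes. DESeq2 called 7 members and 14.7% of genes, and limma-voom 7 members and 21.5% of genes, of which 5 were lower by each tool (Irf7, Irf9, Isg15, Rsad2 and Rtp4). This comparison uses the same libraries and model terms as the tissue comparison. The filter on low counts was applied by series, so 14673 genes were fitted here and 13294 by tissue. Tap1 averaged 80.6 ± 13.2 CPM (SD, n = 4) in XY9274 and 49.8 ± 14.4 CPM (SD, n = 9) in L002, a log2 fold change of 0.68 (SE 0.22, edgeR adjusted p 0.120). Irf7 averaged 54.7 ± 29.9 against 132 ± 76.2 CPM, which is -1.38 on the log2 scale (SE 0.45, edgeR adjusted p 0.120). Parp14 averaged 11.5 ± 4.26 against 1.31 ± 1.39 CPM, which is 3.65 on the log2 scale (SE 1.19, edgeR adjusted p 0.120), and was the 1 member with all XY9274 libraries above all L002 libraries, as were 5.4% of genes. Isg15 averaged 32.6 ± 31.5 against 124 ± 98.4 CPM, which is -2.07 on the log2 scale (SE 0.74, edgeR adjusted p 0.140). All 3 Lin-named libraries and fibrous 1 are in L002. The 5 plus-named L002 libraries alone averaged 79.0 ± 13.3 CPM for Irf7 and 51.4 ± 15.5 CPM for Isg15. For Tap1 they averaged 55.5 ± 17.1 CPM and for Parp14 1.64 ± 1.79 CPM. The summed erythroid markers were 4601 to 92026 CPM in XY9274 and 36137 to 576042 CPM in L002, and DESeq2 called 5 of the 9 and edgeR 0. Pan-leukocyte markers summed to 632 to 5388 CPM in XY9274 and 95.4 to 1769 CPM in L002, with 7 of 7 at a positive log2 fold change (median 1.37), 2 called by DESeq2 and 0 by edgeR. Neutrophil markers summed to 9537 to 97114 CPM against 655 to 36073 CPM, with 10 of 10 positive (median 1.73), 2 called by DESeq2 and 0 by edgeR. Of 5 tested T and NK cell markers, edgeR called 1, Nkg7, higher in XY9274 (adjusted p 0.0314). The part of these cells in the members' differences was not tested.

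In edgeR's test, the only members called in any of the 4 comparisons were 2 that were higher in the Lin-named libraries. Rsad2 was 1530 ± 349 CPM (SD, n = 3) in Lin-named and 323 ± 109 CPM (SD, n = 5) in plus-named libraries, a log2 fold change of 2.34 (SE 0.33, edgeR adjusted p 0.0161). Isg15 was 234 ± 79.0 CPM (SD, n = 3) against 51.4 ± 15.5 CPM (SD, n = 5), a log2 fold change of 2.13 (SE 0.36, edgeR adjusted p 0.0223). Every Lin-named library lay above every plus-named one for both. The background was 8.16% of 13450 genes called (3.15% higher, 5% lower), against 2 of 31 members, both higher. With higher and lower calls pooled, the share of members called was below the 8.16% of all genes. For higher calls alone the members' share was above the 3.15% of all genes, and for lower calls it was below the 5%. These shares rest on 2 called members and their difference from all genes was not tested, so the count says nothing particular to the list. At an unadjusted p under 0.05 there were 6 members and 27.7% of genes. The median log2 fold change was 0.48 over the 31 members and -0.21 over all genes.

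Irf7 also had all Lin-named libraries (111 to 259 CPM) above all plus-named ones (57.1 to 91.5 CPM), as 11.1% of genes did, with a log2 fold change of 1.28 (SE 0.32) and an edgeR adjusted p of 0.0527. Usp18 averaged 45.0 ± 9.13 CPM (SD, n = 3) against 22.8 ± 12.6 CPM (SD, n = 5), a log2 fold change of 1.38 (SE 0.47, edgeR adjusted p 0.109). Ifih1 and Gbp3 had all Lin-named libraries below all plus-named ones, as 14.2% of genes did, and edgeR called neither (adjusted p 0.197 and 0.447). Cxcl9 had 0 counts in all 3 Lin-named libraries and lay between 0 and 16.1 CPM in the plus-named ones. DESeq2 called 7 members (Rsad2, Isg15, Irf7, Usp18, Trim25 and Parp14 higher, Ifih1 lower) against 27.2% of genes, and limma-voom called Rsad2 and Isg15 against 4.68%. Rsad2 stayed called with each library left out in turn. Isg15 lost its call without bone 2 (adjusted p 0.0508), bone 3 (0.0646), bone 4 (0.0622) or fibrous 2 (0.0515) by edgeR. With fibrous 1, whose name holds neither token and whose Rsad2 was 1503 CPM, counted among the libraries not named Lin, neither was called (edgeR adjusted p 0.117 for Rsad2 and 0.092 for Isg15).

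Bone 2 and bone 4 share the token 4 in their names, and fibrous 2 and fibrous 5 the token A, plus and Lin in that order. In both pairs Rsad2 was higher in the Lin-named library, by 5.47 and 5.31 times. Isg15 was higher by 4.52 and 3.82 times, Irf7 by 4.53 and 1.42 times and Usp18 by 2.94 and 1.75 times. Tap1 stood at 0.852 and 0.716 times its plus-named level. The labels do not say whether a shared token means a shared animal. The fits of Lin-named against plus-named libraries had no term for these pairs.

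Other markers moved with the same division of libraries. By edgeR, 6 of 9 erythroid markers rose in the Lin-named libraries (among them the haemoglobin genes Hba-a1, Hba-a2, Hbb-bs and Hbb-bt and the haem synthesis enzyme Alas2), and their summed level was 243030 to 576042 CPM against 36137 to 89127 CPM. Of 10 markers of LepR stromal cells, 7 fell, with a sum of 16.3 to 37.4 CPM against 995 to 12485 CPM, and of 8 osteoblast and chondrocyte markers 7 fell. Of 8 B cell markers, Cd79a and Cd79b rose, and of 5 tested plasmacytoid dendritic cell markers Ly6d rose. Siglech, a defining marker of plasmacytoid dendritic cells, lay at 3.66, 0 and 6.03 CPM in the 3 Lin-named libraries and at 0 to 5.47 CPM in the plus-named ones. Pan-leukocyte markers summed to 682 to 1769 CPM against 118 to 1386 CPM, with 0 of 7 called by edgeR and 1 by DESeq2. The part of each of these cell types in the Rsad2 and Isg15 difference was not tested.

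Across all 13 libraries, the 5 with the highest Rsad2 (bone 4, fibrous 1, bone 3, fibrous 5 and bone 6) were also the 5 with the highest Isg15, the 5 with the highest Irf7 and the 5 with the highest sum of erythroid markers. Fibrous 1 is among them although its name does not hold Lin. At the other end, bone 5 had the lowest erythroid sum (4601 CPM), the lowest Rsad2 (22.9 CPM) and the lowest Isg15 (9.38 CPM), and fibrous 7 had the next lowest of each (16155, 60.9 and 13.4 CPM). Oasl2, Ifit1 and Usp18 shared 4 of these 5 libraries in their own top 5. A further 7 members shared 3, 5 shared 2, 10 shared 1 and 6 shared none, the last being Irf1, Ifit3, Mx1, Mx2, Cxcl9 and Gbp3. The shared order is a description of 13 libraries that also differ in depth and composition, and carries no test.

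**Figure D4:**
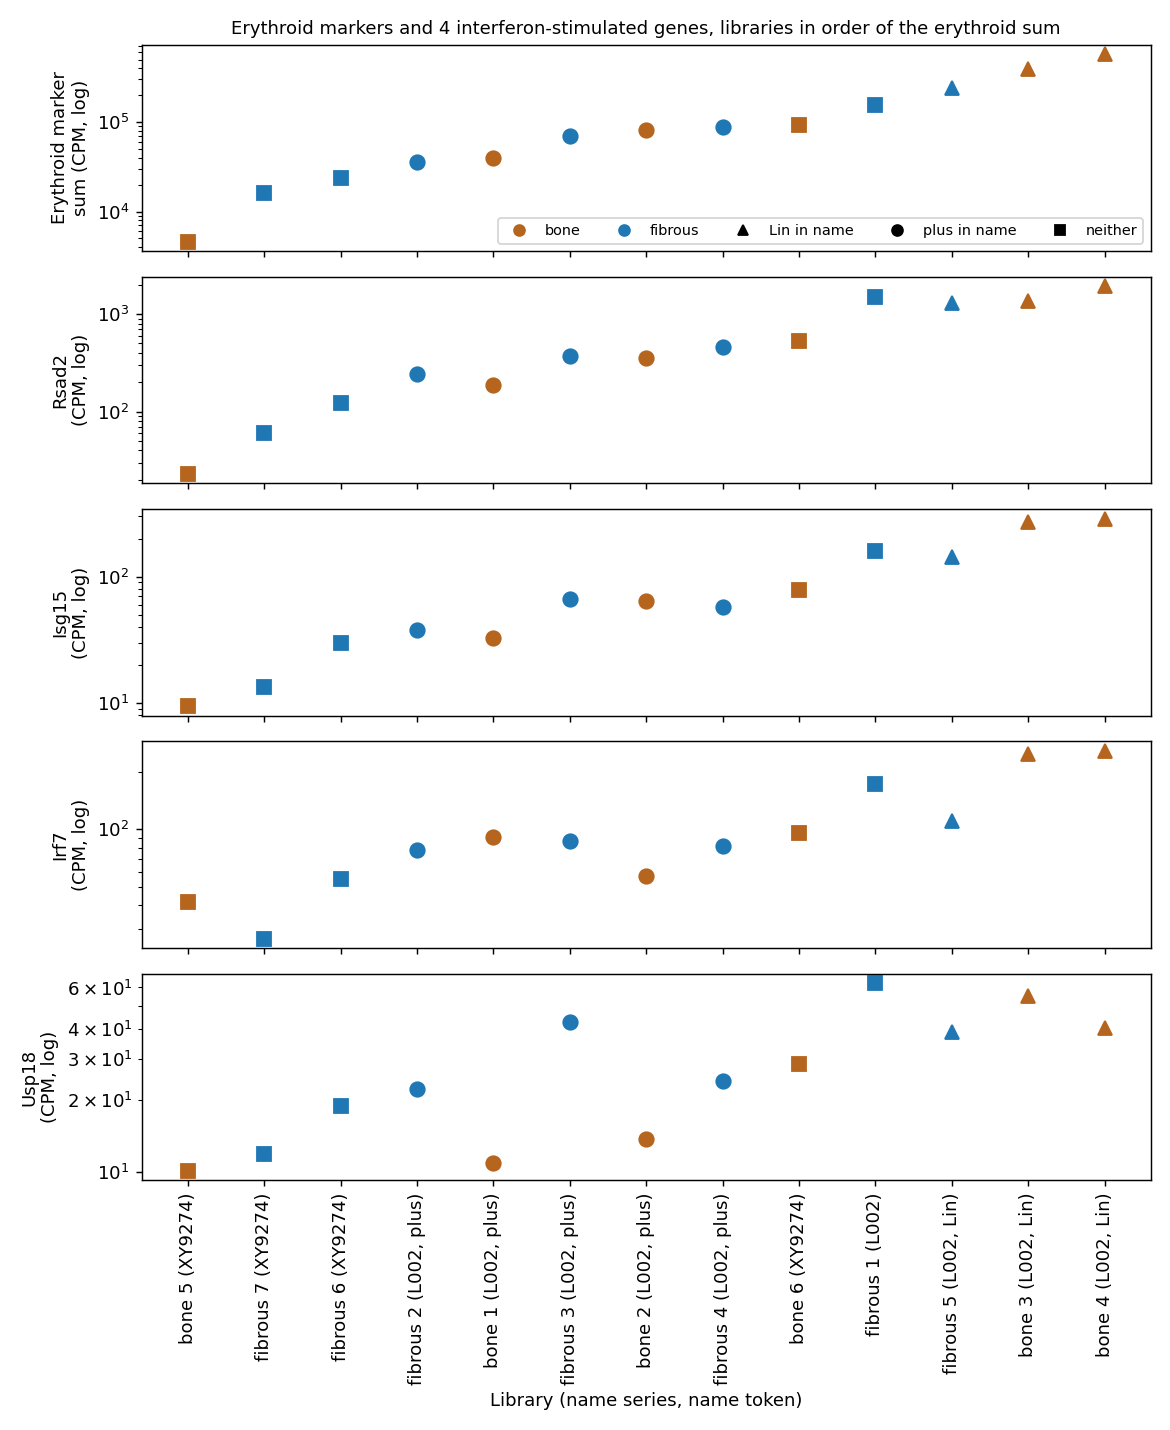
Summed erythroid markers (top) and 4 interferon-stimulated genes, in normalised CPM on log axes, with the 13 libraries ordered from left to right by the erythroid sum; colour gives the tissue and the symbol the token in the library name. Rsad2 climbs with the erythroid sum from 22.9 CPM in bone 5 to 1930.0 CPM in bone 4, Isg15 and Irf7 follow nearly the same order, and Usp18 follows it more loosely.

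Of 50 further interferon-stimulated genes, 41 were tested by name token, and by edgeR 2 rose in the Lin-named libraries and 1 fell. That share is close to the 8.16% of all genes called there, so the count says nothing particular to the list. Cmpk2, a mitochondrial nucleotide kinase, lies next to Rsad2 on chromosome 12, with 12751 bases between the genes, which are read away from each other. It lay at 108, 108, 251, 288, 93.0 and 213 CPM in bone 1 to 6 and at 254, 104, 130, 168, 224, 87.8 and 108 CPM in fibrous 1 to 7, with a log2 fold change of 1.12 (SE 0.21) in the Lin-named libraries (edgeR adjusted p 0.0275). Isg20, an exonuclease of single-stranded RNA, lay between 65.3 CPM (bone 5) and 1268 CPM (bone 4) and rose by 1.33 (SE 0.26, log2, edgeR adjusted p 0.0303). Gbp7 fell by 2.19 on the log2 scale (edgeR adjusted p 0.0341). The 38 other tested genes of that list were not called by edgeR. DESeq2 called 8 of the list, against 27.2% of all genes. Of the 41 tested, 16 had a positive and 25 a negative log2 fold change. Fibrous against bone, edgeR called 0 of 41 and DESeq2 1, against 0% and 1.3% of all genes. Between series, DESeq2 called 6 and edgeR 1 of 45, against 14.7% and 2.4% of all genes. The edgeR call was the RNA-editing enzyme Adar (higher in XY9274 by 1.54, log2, edgeR adjusted p 0.0391).

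None of the interferon receptors tested was called by edgeR or DESeq2 in any of the 4 comparisons. Ifnar1 lay between 11.2 and 55.4 CPM and Ifnar2 between 20.3 and 96.9 CPM. The kinase Jak1 fell in the Lin-named libraries by 1.11 on the log2 scale (edgeR adjusted p 0.0352), Stat3 by 2.52 (adjusted p 0.0251) and the feedback inhibitor Socs3 by 4.69 (adjusted p 0.0352). These were 2 of 5 JAK-STAT genes and 1 of 8 feedback regulators tested, where edgeR called 8.16% of all genes. Jak2, 1 of the 5 JAK-STAT genes, rose in XY9274 by 1.94 (log2, edgeR adjusted p 0.0445), where 2.4% of all genes were called. Of 21 listed interferon genes only Ifng was found by symbol in the matrix, so no levels can be given for the others. Ifng passed the filter on low counts in none of the comparisons. It had at most 0.654 CPM (fibrous 2), 0.113 CPM in bone 5 and a level between these in fibrous 6, and 0 counts in the other 10 libraries.

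Nucleic acid sensors and their adaptors, the genes that trigger interferon production, were called in none of the comparisons by edgeR (12 tested by tissue, 13 by series and 12 by name token). DESeq2 called 2 by series, 2 by name token and 1 in the interaction, against 14.7%, 27.2% and 0.192% of all genes. Ddx58, which encodes RIG-I, was at 0.0788 and 0.123 CPM in bone 1 and 2 and highest in bone 5 (39.0 CPM). Irf8, a factor of myeloid and B cells, was at 336 CPM in bone 5 and at most 97.6 CPM elsewhere. Among 17 genes of MHC class I presentation, Pdia3, a chaperone of the loading complex, was the 1 called by edgeR, lower in the Lin-named libraries by a log2 fold change of -0.95 (edgeR adjusted p 0.0202). By name token edgeR called 8.16% of all genes. DESeq2 called 4 of the 17 by name token and 1 by series, against 27.2% and 14.7% of all genes. H2-K1 and H2-D1, the class I heavy chains, were highest in fibrous 2 (1245 and 3130.3 CPM) and fibrous 3 (938 and 2682 CPM), the libraries with the highest Bst2, Cxcl9 and Gbp2. H2-K1, H2-D1, Cd74, Ddx58 and Irf8 were chosen for naming after their values were seen. Of 6 tested genes of MHC class II presentation, edgeR called 0 in each comparison, and Cd74, the class II invariant chain, was highest in bone 5 at 729 CPM.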

How the data were processed

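Poly(A) RNA from 13 libraries was analysed from a matrix of raw read counts per Ensembl gene deposited by the authors. The submitters' processing notes name edgeR, mm10 and hg38 without roles; for the aligner, counter and strand setting nothing was found in the labels. All 13 columns matched sample labels and 0 others were present. No 2 libraries of a group agreed within sampling noise (smallest chi-square per degree of freedom 89.8). Counts were fitted with edgeR 4.0.16 (R 4.3.3; TMM, filterByExpr, robust quasi-likelihood F test), with Benjamini-Hochberg adjustment over all tested genes and a threshold of 0.05. Alternatives were DESeq2 1.42.0, voom with sample quality weights in limma 3.58.1, and other filters, size factors, covariates and left-out libraries. The edgeR tests of tissue and of name token were checked on simulated counts, for well-counted genes only. The other comparisons were not simulated. Each standard error was obtained from the log2 fold change and the square root of its F statistic. Fibrous against bone had the name series as a term, and Lin-named against plus-named had tissue as a term and left out fibrous 1. The members and lists were chosen with earlier results of these data known. Values in every library were given for the 2 members of each of 5 role classes with the highest mean and for up to 4 members with the smallest p in each comparison. Gene positions are from GENCODE on mm10, and promoter stretches from RefSeq on GRCm38.p6. Results for some genes of the lists are not reported here.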

Additional observations from a re-analysis of the deposited data

Results flagged for a closer look

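In 68 groups tested (34 genes in 2 tissues, on log2 of CPM plus 1), Dixon's test gave 8 flags of a library standing apart from its group. Chance gives about 1 in 20, but where all other libraries are at 0 any count is flagged, so that rate does not hold there. Bone 5 accounted for 4 of the 8 flags, with Cxcl10 at 9.74 CPM (0 in every other bone library), Mx1 at 0.518 CPM and Mx2 at 0.293 CPM (0 in the others) and Cxcl9 at 0.203 CPM (next highest 0.0409 CPM). Bone 1 had Oasl2 at 0.158 CPM, with the next lowest bone library at 22.0 CPM. Among the fibrous libraries, fibrous 2 had Oas2 at 1.40 CPM and fibrous 7 had Mx1 at 0.310 CPM, each against 0 in the others. Fibrous 1 had Psmb9 at 20.3 CPM, with the next lowest at 31.8 CPM.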

How the results depend on the processing

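Counts of called genes depended on the tool. DESeq2 called 1 member and 169 genes for tissue, 7 and 2025 for series, 7 and 3493 for name token, and 25 genes for the interaction. Limma-voom called 7 members and 3158 genes for series and 629 genes for name token. Between series, 203 genes were called without the 3 Lin-named libraries and 32 without the 5 libraries with Lepr under 5 CPM, which gave 1 gene for the interaction. With all 9 L002 libraries in the token comparison, 0 members and 354 genes were called. Leaving out 1 library at a time gave 138 (without fibrous 3) to 992 genes and 1 to 3 members for name token, 123 (without bone 5) to 573 genes (without bone 1) and 0 to 2 members for series, and 0 for tissue and the interaction. The cause was not tested. Irf7 was called in the token comparison by edgeR without fibrous 5 (1.83, adjusted p 0.0242), with a stricter filter (adjusted p 0.0421) and without the tissue term (adjusted p 0.0192).

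Some uncalled tissue log2 fold changes changed sign. Within XY9274 alone they were -0.24 for Bst2, -0.62 for Trim25, -0.23 for Tap1, -0.59 for Cxcl10, -0.52 for Dhx58 and -0.40 for Usp18. Within L002 alone they were 0.0199 for Irf9 and 0.037 for Oas3. Oasl2 was 0.70 by limma-voom, 0.26 without the Lin-named libraries and 0.37 without those of low Lepr. Irf9 was 0.0066 without the series term, 0.0175 without the Lin-named libraries, 0.024 with a pan-leukocyte score and 0.0089 with an erythroid score, an alternative chosen after seeing the data. Usp18 was -0.0353 with the pan-leukocyte score, and Rsad2 was 0.11 with the erythroid score. With 1 library left out, Usp18 ran from -0.12 to 0.37, Irf9 from -0.23 to 0.0597 and Rsad2 from -1.06 to 0.0607. The Cxcl10 interaction was 0.71 without the libraries of low Lepr, where every remaining bone library was at 0. This alternative was also chosen after seeing the data. No paired analysis of tissue was possible because the labels give no replicate numbers shared between bone and fibrous libraries. A level under 0.282 CPM was at or near the floor of 3 counts in the shallowest library.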
